A study of Saccharomyces cerevisiae with 14 samples.

Results

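The glycogen genes of lager yeast comprised 10 genes for making and breaking down glycogen: GSY1, GSY2, GLG1, GLG2, GLC3, GPH1, GDB1, PGM1, PGM2 and UGP1. They were chosen by name, and each was read from its single probe set assigned to exactly 1 gene, so 10 of 10 were found among 5449 Saccharomyces cerevisiae genes. The arrays hold total RNA of Lager Yeast Strain CB11 drawn from 1 production-scale brewery fermentation, with 3 arrays at 8 h, 2 at 30 h and 3 each at 60, 80 and 102 h. Times count from pitching, when the wort receives its yeast. All groups share the strain, the vessel and the wort, an oxygenated malt wort with sugar adjunct and added zinc. By the labels they differ only in time, but RNA integrity also differed between arrays, as given below. The yeast batch had served in earlier fermentations, and no untreated or other strain was compared. Lager yeasts are hybrids that also carry the genome of a related species, so a probe set made for S. cerevisiae can read transcripts of both parents. Nothing in the labels says that replicates were separate cultures, so the p-values measure the spread between samples of 1 vessel, which may be technical.

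Glycogen is the branched glucose store of yeast. The phosphoglucomutases Pgm1 and Pgm2 turn glucose-6-phosphate into glucose-1-phosphate, and Ugp1 joins that to uridine to give UDP-glucose. The glycogenins Glg1 and Glg2 start a chain on themselves, the synthases Gsy1 and Gsy2 lengthen it from UDP-glucose, and Glc3 adds branches. In breakdown the phosphorylase Gph1 releases glucose-1-phosphate and the debranching enzyme Gdb1 removes the branch stubs. Brewing yeast is known to draw on its glycogen soon after pitching, when sterols are made, and to store it again later. The arrays measure transcripts only, not glycogen, enzyme amounts or activity.

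Signals are linear intensities after quantile normalization between arrays, a step that gives every array the same distribution, so a change in total RNA per cell cannot be seen. In bulk RNA, fewer cells with a transcript and less of it per cell cannot be told apart. Errors after a log2 change are standard errors of the limma fit over all 14 arrays, and each adjusted p is from that limma fit, by Benjamini-Hochberg over all 5338 probe sets tested, with 0.05 as the threshold. Levels of different genes are not compared, because probe sets differ in brightness. The mean log2 ratio of 5′ to 3′ signal of 8 control transcripts, a sign of RNA integrity, was -3.28 on 8 h replicate 1, -4.41 on 60 h replicate 1 and -1.85 on 60 h replicate 2, against -1.18 to -0.51 on the other 11 arrays. Between 94.4% and 96.7% of S. cerevisiae probe sets were above background on each array. The background threshold is a set percentile of each normalized array, so this share is largely fixed in advance and does not measure RNA integrity. The 3 arrays of low ratio are called the weak-5′ arrays. Calls of the glycogen genes that use 8 h or 60 h are given with and without them, and those of other genes only in part. Without the weak-5′ arrays 60 h rests on replicate 3 alone. Shares of all probe sets that passed come from the fit on all 14 arrays. Counts from any other fit have no such share beside them.

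Over the fermentation 8 of the 10 glycogen genes changed in the moderated F-test, as did 68.5% of all probe sets tested, and the count was 8 without the 3 weak-5′ arrays. The genes followed different courses. Signals of the synthase isoform GSY1 and of PGM1 fell to a fraction of their starting level, and UGP1 fell by a smaller amount. The major synthase gene GSY2 fell between the last 2 times, and the branching enzyme gene GLC3 did not pass the test. PGM2 and the debranching gene GDB1 fell at 60 h, and both rose later. The fold between a gene's highest and lowest time mean was 5.50 for PGM1, 4.77 for GSY1, 3.62 for GDB1 and 2.17 for GLG1, while it lay between 1.55 and 1.80 for GSY2, GLG2, PGM2 and UGP1 and was 1.19 for GLC3. Over all probe sets tested the median span was 1.82-fold.

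**Figure D1:**
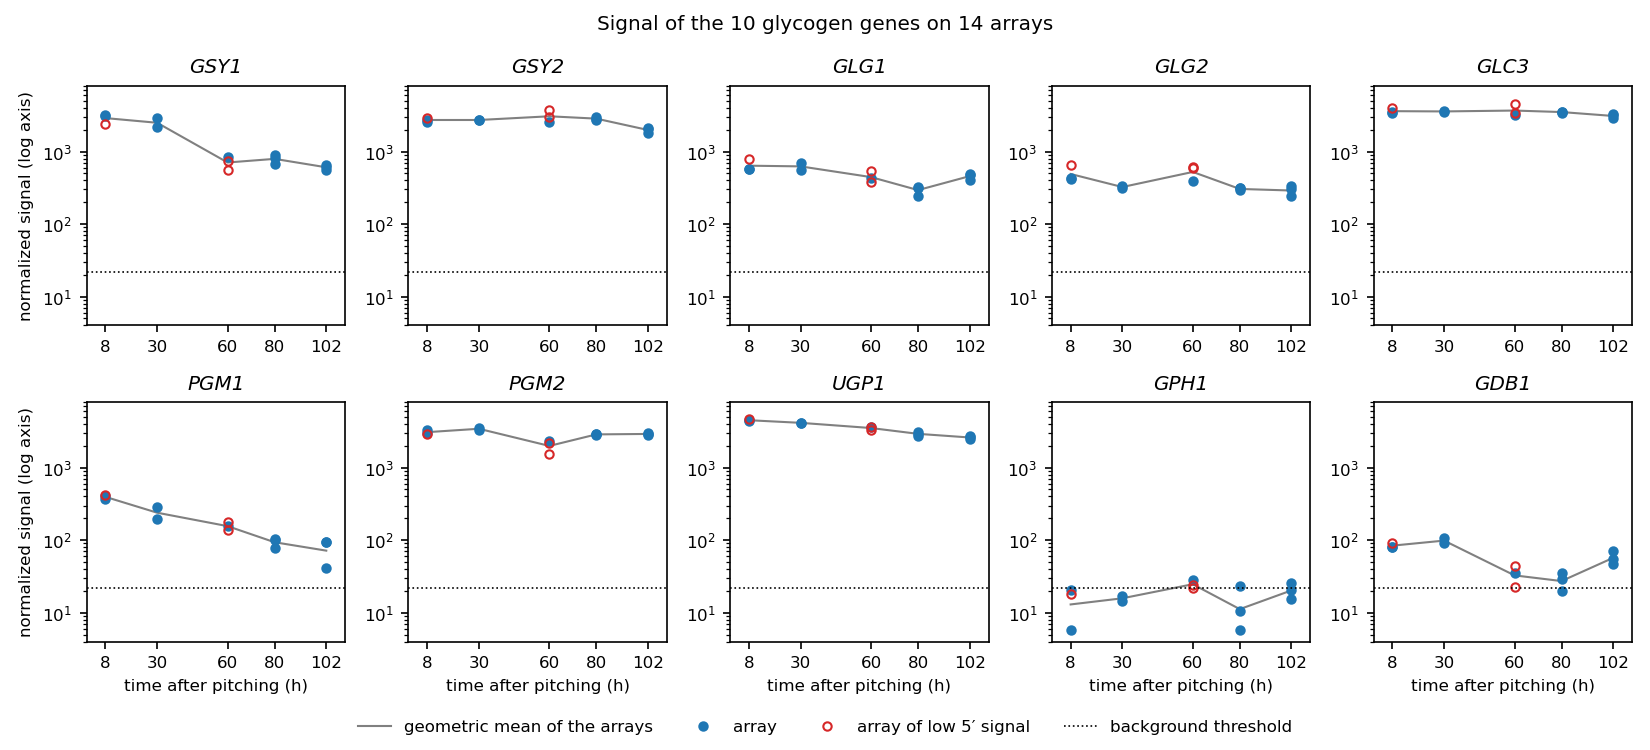
Normalized signal (log axis) of each glycogen gene against time after pitching (h) on 14 arrays; open red points are the 3 weak-5′ arrays, the grey line joins the geometric means and the dotted line is the background threshold of 22.1. GSY1 lies between 2160 and 3210 at 8 and 30 h and between 549 and 885 from 60 h on, and the points of GPH1 run from 5.69 to 28.6, most of them under the threshold.

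GSY1, one of the glycogen synthases, gave signals of 2430, 3210 and 3100 at 8 h, 2160 and 2870 at 30 h, 549, 752 and 853 at 60 h, 824, 885 and 683 at 80 h and 610, 655 and 558 at 102 h, in the order of the replicate numbers. Every array of the first 2 times was above every later array. From 30 h to 60 h GSY1 fell by 1.82 ± 0.20 on the log2 scale (limma adjusted p = 7e-05). Leaving out the weak-5′ arrays, it fell by 1.55 (adjusted p = 9.4e-05). Its later values were 0.17 ± 0.18 from 60 h to 80 h (adjusted p = 0.54) and -0.39 ± 0.18 from 80 h to 102 h (adjusted p = 0.17). The last of these passed as lower without the 3 arrays (-0.39, adjusted p = 0.021), on the authors' scale as deposited (-0.69, adjusted p = 0.033) and with only the arrays of 80 and 102 h in the fit (-0.39, adjusted p = 0.0074). Over the whole course, 102 h against 8 h, GSY1 fell by 2.25 ± 0.18 (adjusted p = 1.7e-06), and it fell by 2.38 with the weak-5′ arrays left out (adjusted p = 8.2e-08).

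GSY2, known in laboratory strains as the main synthase, gave 2870, 2760 and 2530 at 8 h, 2730 and 2720 at 30 h, 3020, 3680 and 2580 at 60 h, 2980, 2830 and 2710 at 80 h and 2100, 2030 and 1820 at 102 h. The first 4 times overlap and the 102 h arrays lie below all others. GSY2 fell by 0.52 ± 0.13 from 80 h to 102 h (adjusted p = 0.016) and stood 0.46 ± 0.13 lower on the log2 scale at 102 h than at 8 h (adjusted p = 0.0093). With the weak-5′ arrays left out the latter value was -0.42 (adjusted p = 0.0012). The call from 80 h to 102 h ended when replicate 1 or 2 of 80 h was left out (-0.48 and -0.52, adjusted p = 0.059 and 0.058) or replicate 3 of 102 h (-0.46, adjusted p = 0.079), and with arrays centred on the S. cerevisiae median (-0.32, adjusted p = 0.15).

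The 2 synthase genes therefore parted within each array. Relative to its mean at 8 h, the log2 ratio of GSY2 over GSY1 averaged 0.22, 2.21, 1.93 and 1.80 at the 4 later times in order. Taking the late arrays (80 and 102 h, n = 6) against the early ones (8 and 30 h, n = 5), the ratio was 1.87 ± 0.13 against 0.09 ± 0.28 (mean ± SD), a difference of 1.78. No late array overlapped an early one. This gave p = 0.0022 in a two-sided exact permutation test, the smallest p this design allows, and an adjusted p = 0.0043 over the 4 gene pairs tested this way. A ratio within an array shows unequal change, not that one of the genes stayed the same. On the authors' scale as deposited the difference was also 1.78, and with the weak-5′ arrays left out it was 1.84.

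The glycogenin genes GLG1 and GLG2, whose products prime the chain, changed less and with less certainty. GLG1 gave 777, 576 and 580 at 8 h, 556 and 699 at 30 h, 534, 382 and 430 at 60 h, 326, 243 and 319 at 80 h and 480, 407 and 494 at 102 h. The 80 h arrays lie below all others. GLG1 fell by 0.60 ± 0.18 from 60 h to 80 h (adjusted p = 0.031) and rose by 0.64 ± 0.18 from 80 h to 102 h (adjusted p = 0.028). With the weak-5′ arrays left out, the first value was -0.55 (adjusted p = 0.047). Late against early it fell by 0.78 ± 0.13 (adjusted p = 0.00031), a call that held without any 1 array.

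The 2 interval calls of GLG1 rest on few arrays. The fall to 80 h ended without 60 h replicate 1 (-0.47, adjusted p = 0.084) or any of the 80 h arrays (-0.67, -0.46 and -0.66 without replicates 1, 2 and 3, adjusted p = 0.052, 0.14 and 0.054). The rise to 102 h ended without 80 h replicate 2 or 3 (0.51 and 0.70, adjusted p = 0.13 and 0.061) or 102 h replicate 1 or 3 (0.61 and 0.59, adjusted p = 0.092 and 0.11). From 30 h to 60 h GLG1 stood at -0.49 ± 0.20 (adjusted p = 0.083), and it passed as lower without 60 h replicate 1 (-0.62, adjusted p = 0.031). On the authors' scale as deposited neither of the first 2 passed (-0.30 and 0.28, adjusted p = 0.20 and 0.22).

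GLG2 gave 661, 413 and 432 at 8 h, 311 and 338 at 30 h, 621, 596 and 387 at 60 h, 314, 292 and 311 at 80 h and 331, 305 and 242 at 102 h. Its 3 highest signals are those of the 3 weak-5′ arrays. GLG2 rose by 0.69 ± 0.23 from 30 h to 60 h (adjusted p = 0.042) and fell by 0.78 ± 0.21 from 60 h to 80 h (adjusted p = 0.020), but stood at 0.26 (adjusted p = 0.27) and -0.34 (adjusted p = 0.15) without the 3 arrays. The part of RNA integrity in these changes was not tested. At 102 h GLG2 was 0.76 ± 0.21 lower on the log2 scale than at 8 h (adjusted p = 0.009), and 0.54 lower without the 3 arrays (adjusted p = 0.0026).

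Single arrays also decided some calls of GLG2. The rise to 60 h ended when any of 9 arrays was left out (adjusted p from 0.052 to 0.16), namely both 30 h arrays, 60 h replicates 1 and 2, the 80 h arrays and 102 h replicates 1 and 2, where its value ran from 0.57 to 0.75. The fall to 80 h ended without 60 h replicate 1 or 2 or any 80 h array (-0.80 to -0.65, adjusted p from 0.054 to 0.076). The ratio of GLG1 over GLG2 differed by -0.30 between late and early arrays (exact permutation p = 0.25, adjusted p = 0.33), and the groups overlapped, so a different change of the 2 glycogenin genes was not shown.

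GLC3, the branching enzyme gene, ran from 2890 to 4480 over the 14 arrays, with time means of 3610, 3570, 3710, 3500 and 3100 in time order. It did not pass the F-test (adjusted p = 0.36) and stood at -0.22 ± 0.12 at 102 h against 8 h (adjusted p = 0.15). All 3 arrays at 102 h lay below all 3 at 8 h, and this comparison passed without 60 h replicate 1 (-0.22, adjusted p = 0.046).

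The phosphoglucomutase genes also parted. PGM1, the minor isoform in laboratory strains, gave 414, 402 and 369 at 8 h, 197 and 291 at 30 h, 136, 176 and 158 at 60 h, 99.7, 104 and 79.0 at 80 h and 41.8, 93.0 and 94.8 at 102 h. Each time lies wholly below the one before except 102 h, which overlaps 80 h. No single interval passed (adjusted p from 0.071 to 0.36). From 8 h to 102 h PGM1 fell by 2.46 ± 0.27 (adjusted p = 1.4e-05). It fell by 2.43 when the weak-5′ arrays were left out, and it fell by 2.07 without 102 h replicate 1, the lowest array. Without that array 2 intervals also passed, 30 h to 60 h at -0.62 (adjusted p = 0.036) and 60 h to 80 h at -0.73 (adjusted p = 0.015).

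PGM2, the major isoform, gave 2950, 3290 and 3000 at 8 h, 3320 and 3530 at 30 h, 1550, 2180 and 2330 at 60 h, 2900, 2930 and 2790 at 80 h and 3020, 2920 and 2790 at 102 h. The 60 h arrays lie below all others. PGM2 fell by 0.78 ± 0.15 from 30 h to 60 h (adjusted p = 0.0023) and rose by 0.53 ± 0.13 from 60 h to 80 h (adjusted p = 0.015). Without the 3 weak-5′ arrays it fell by 0.55 (adjusted p = 0.002) and rose by 0.30 (adjusted p = 0.049), with 60 h replicate 3 as the only array of its time. The rise ended without 80 h replicate 1 or 2 (0.52 in each, adjusted p = 0.053 and 0.058) and with arrays centred on the S. cerevisiae median (0.38, adjusted p = 0.083). At 102 h PGM2 stood at -0.08 ± 0.13 against 8 h (adjusted p = 0.63).

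The log2 ratio of PGM2 over PGM1, relative to its mean at 8 h, averaged 0.88, 0.71, 1.98 and 2.38 at the 4 later times in order. It was 2.18 ± 0.52 on the late arrays (SD, n = 6) and 0.35 ± 0.52 on the early arrays (SD, n = 5), a difference of 1.83 with no overlap (exact permutation p = 0.0022, adjusted p = 0.0043). Left-out arrays moved this difference between 1.62 and 2.02. It was 1.62 on the authors' scale as deposited and 1.71 with the weak-5′ arrays left out.

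**Figure D2:**
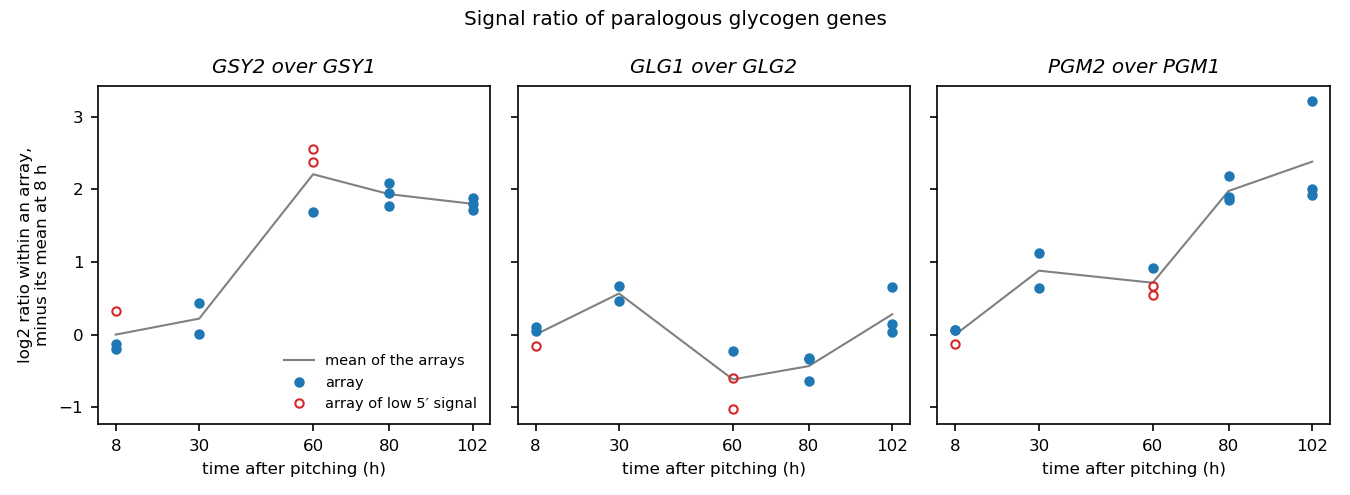
Log2 ratio of 2 paralogous genes within an array, minus its mean at 8 h, against time after pitching (h); points are arrays, open red points the 3 weak-5′ arrays and the line joins the means. GSY2 over GSY1 averages 1.80 to 2.21 from 60 h on, PGM2 over PGM1 reaches 1.98 at 80 h and 2.38 at 102 h, and GLG1 over GLG2 ranges from -1.02 to 0.67.

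UGP1, whose product makes UDP-glucose for glycogen, trehalose and cell wall glucan, gave 4620, 4360 and 4520 at 8 h, 4130 and 4150 at 30 h, 3320, 3580 and 3630 at 60 h, 2900, 2770 and 3100 at 80 h and 2710, 2620 and 2490 at 102 h. Each time lies wholly below the one before it. The steps were small and none passed (adjusted p from 0.053 to 0.57). From 60 h to 80 h UGP1 stood at -0.27 ± 0.09 (adjusted p = 0.053), and it passed there with dim probe sets kept (-0.27, adjusted p = 0.043), with the weak-5′ arrays left out (-0.32, adjusted p = 0.040) and with arrays centred on the S. cerevisiae median (-0.46, adjusted p = 0.017). Centring also gave a call from 30 h to 60 h (-0.44, adjusted p = 0.026). From 8 h to 102 h it fell by 0.79 ± 0.09 (adjusted p = 1.8e-05), and it fell by 0.77 with the weak-5′ arrays left out (adjusted p = 5.5e-06).

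Of the breakdown genes, GPH1 could hardly be measured. The signals of this phosphorylase gene were 18.1, 20.7 and 5.80 at 8 h, 14.4 and 17.2 at 30 h, 21.9, 24.0 and 28.6 at 60 h, 5.69, 23.6 and 10.6 at 80 h and 20.5, 15.6 and 26.0 at 102 h. None of the 8 h and 30 h arrays was above the background threshold of 22.1, and 2, 1 and 1 arrays were above it at 60, 80 and 102 h. From 30 h to 60 h its log2 change was 0.65 ± 0.63 (limma adjusted p = 0.47), so no rise was shown. With the threshold taken as the level at 30 h, the geometric mean at 60 h was 1.12-fold that level, with 60 h replicate 1 (21.9) under it. The F-test gave an adjusted p = 0.34, but it passed with arrays centred on the S. cerevisiae median (adjusted p = 0.035). From 80 h to 102 h the limma value was 0.85 ± 0.57 (adjusted p = 0.33). It passed as higher there on the authors' scale as deposited (1.55, adjusted p = 0.035) and with centred arrays (1.85, adjusted p = 0.026). GPH1 was above background on 0 of 5 early and 2 of 6 late arrays, so its changes in the other intervals and its ratio to GSY2, the remaining pair of the 4, are not read here.

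GDB1, the debranching gene, was dim, and 80 h replicate 3 was not above background. It gave 92.5, 80.1 and 80.0 at 8 h, 108 and 90.3 at 30 h, 44.1, 22.7 and 34.9 at 60 h, 35.8, 28.7 and 19.7 at 80 h and 71.9, 46.6 and 55.5 at 102 h. Every array of 8 h and 30 h was above every later one. GDB1 fell by 1.59 ± 0.32 from 30 h to 60 h (adjusted p = 0.0029) and rose by 1.07 ± 0.28 from 80 h to 102 h (adjusted p = 0.024). Leaving out the weak-5′ arrays, the first of these fell by 1.50 (adjusted p = 0.0077). The rise ended without 80 h replicate 2 or 3 (1.10 and 0.83, adjusted p = 0.066 and 0.11) or 102 h replicate 1 or 3 (0.90 and 1.09, adjusted p = 0.10 and 0.070). At 102 h GDB1 stood at -0.56 ± 0.28 against 8 h (adjusted p = 0.12). It was the member of the breakdown arm with a measurable course, falling at the same interval as GSY1 and PGM2.

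Taken by interval, none of the 10 genes passed from 8 h to 30 h in the limma fit. The background there was 0.112% of probe sets higher and 0.131% lower. At an unadjusted p under 0.05 there were 0 higher and 2 lower, GLG2 at -0.60 ± 0.23 (adjusted p = 0.23) and PGM1 at -0.72 ± 0.30 (adjusted p = 0.26). From 30 h to 60 h 1 gene rose (GLG2) and 3 fell (GSY1, GDB1 and PGM2), against 16.2% of all probe sets higher and 11.7% lower. Without the 3 weak-5′ arrays 0 rose and 3 fell. With only the arrays of 30 and 60 h in the fit, GDB1 and PGM2 did not pass (adjusted p = 0.058 and 0.095) and GSY1 did. From 60 h to 80 h 1 rose (PGM2) and 2 fell (GLG1 and GLG2), where 9.42% of all were higher and 10.9% lower. From 80 h to 102 h 2 rose (GLG1 and GDB1) and 1 fell (GSY2), against 7.59% and 8.36%, and 2 rose and 2 fell without the 3 arrays.

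Over the whole course, 102 h against 8 h, 0 of the 10 genes rose and 6 fell, namely GSY1, GSY2, GLG1, GLG2, PGM1 and UGP1. Over all probe sets 21.6% were higher and 28.6% lower. Without the 3 weak-5′ arrays 5 fell, GLG1 being the one lost (-0.33, adjusted p = 0.061). The call of GLG1 also ended when 8 h replicate 1 was left out (-0.33, adjusted p = 0.15), or 102 h replicate 1, 2 or 3 (-0.51, -0.39 and -0.53, adjusted p = 0.068, 0.14 and 0.058). No member was higher at an unadjusted p under 0.05 either.

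Late against early arrays, again 0 rose and 6 fell, with 25.3% of all probe sets higher and 29.4% lower. The share that fell is above this background, and the difference was not tested. GSY1 fell by 1.95 ± 0.14, PGM1 fell by 1.91 ± 0.20, GDB1 fell by 1.21 ± 0.21, GLG1 fell by 0.78 ± 0.13 and UGP1 fell by 0.65 ± 0.07. The sixth was GLG2, which fell by 0.42 ± 0.16 (adjusted p = 0.036). Its call ended on the authors' scale (-0.26, adjusted p = 0.20) and without 8 h replicate 1, either 30 h array, any 80 h array or 102 h replicate 2 or 3 (-0.45 to -0.31, adjusted p from 0.051 to 0.11). With the 3 weak-5′ arrays left out, GSY1, PGM1, GDB1, GLG1, UGP1 and GLG2 stood at -2.02, -1.89, -1.17, -0.71, -0.64 and -0.31. The remaining values were -0.20 ± 0.10 for GSY2 (adjusted p = 0.094), -0.17 ± 0.10 for PGM2 (adjusted p = 0.18) and -0.12 ± 0.09 for GLC3 (adjusted p = 0.27), and GPH1 did not pass. With arrays centred on the S. cerevisiae median these 3 genes stood at -0.34 each and passed as lower (adjusted p = 0.014 for GSY2, 0.018 for PGM2 and 0.029 for GLC3). GSY2 and PGM2 passed as lower without the 3 arrays (-0.18 in each, adjusted p = 0.022 and 0.012), which gave 8 lower. The median over the 10 genes was -0.53, beside -0.05 over all probe sets tested.

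**Figure D3:**
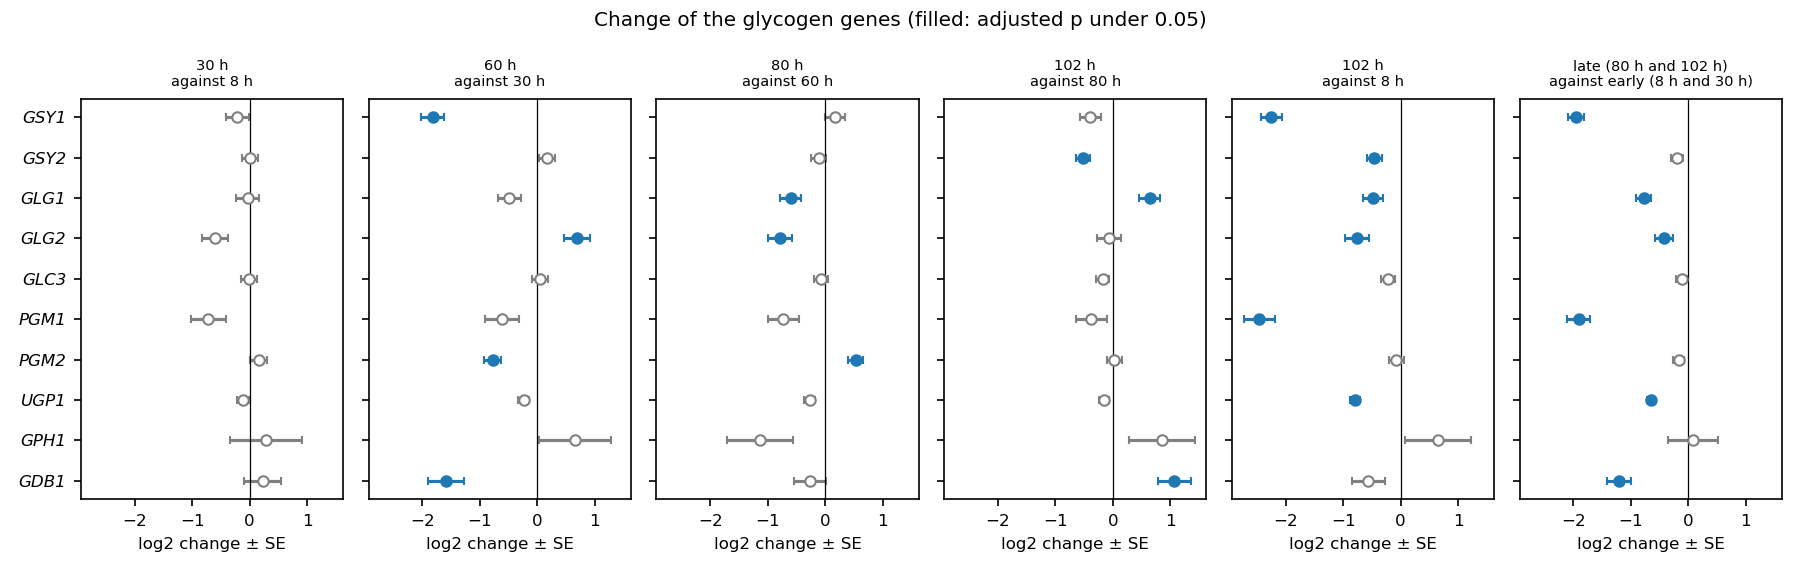
Log2 change ± SE (limma) of each glycogen gene in 6 comparisons, from the fit on all 14 arrays; filled points passed at adjusted p under 0.05. Late against early, the 6 filled points run from -1.95 for GSY1 to -0.42 for GLG2, and no filled point lies above 0 in the last 2 panels.

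Glycogen synthesis is also set by protein phosphatase and kinases that act on the synthase. A list of 17 control genes held these together with SGA1, a glucoamylase gene, and PGM3. Of them 16 had a probe set for 1 gene, and late against early 3 rose and 8 fell (4 and 10 without the 3 weak-5′ arrays, with PIG2 added as higher and GLC7 and PCL8 as lower). The median was -0.29, and the background is that given above. Among the targeting subunits of the phosphatase Glc7, which activates the synthase, GAC1 rose by 1.08 ± 0.18 (adjusted p = 0.00027) and PIG1 rose by 0.85 ± 0.27 (adjusted p = 0.018), while GIP2 fell by 0.86 ± 0.11 (adjusted p = 4.2e-05) and PIG2 stood at 0.19 ± 0.14 (adjusted p = 0.26).

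GAC1 signals lay between 410 and 903 at 8, 30 and 60 h and between 1260 and 2020 at 80 and 102 h, with no overlap. Its rise of 1.38 ± 0.24 from 60 h to 80 h (adjusted p = 0.0021) was 0.91 without the 3 arrays (adjusted p = 0.0035) and 1.05 without 60 h replicate 1. GIP2 fell by 1.06 ± 0.17 from 30 h to 60 h (adjusted p = 0.00074), the interval in which GSY1 fell, and its value was -0.88 with the weak-5′ arrays left out (adjusted p = 0.0018). PIG1 was highest on 60 h replicates 1 and 2, at 451 and 318 against 118 on replicate 3, and the first 2 of these are weak-5′ arrays. Leaving out the 3 arrays gave 0.94 late against early (adjusted p = 1.8e-05). Its call ended without 30 h replicate 2 (0.74, adjusted p = 0.086). From 30 h to 60 h GLC7 fell by 1.02 ± 0.34 (adjusted p = 0.038). This call of GLC7 was lost when any of 10 arrays was left out (adjusted p from 0.051 to 0.22). Without the 3 weak-5′ arrays its value there was -0.58. GLC7 itself stood at -0.28 ± 0.23 late against early (adjusted p = 0.31), and it fell by 0.49 without the 3 arrays (adjusted p = 6.8e-05).

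The other kinase and phosphatase genes that passed late against early were lower. PSK1, a PAS kinase known to phosphorylate Ugp1 and synthase, fell by 1.04 ± 0.13 (adjusted p = 1.9e-05), and its paralog PSK2 stood at -0.12 ± 0.12. PHO85, the cyclin-dependent kinase that phosphorylates Gsy2, fell by 0.56 ± 0.20 (adjusted p = 0.033). Its cyclin genes PCL6 and PCL7 stood lower by 0.47 ± 0.12 and 0.36 ± 0.08. PCL7 was low at 80 h only, with time means of 406, 446, 438, 263 and 418 in time order. It fell by 0.74 ± 0.11 from 60 h to 80 h (adjusted p = 0.001) and rose by 0.67 ± 0.11 to 102 h (adjusted p = 0.0027). At 102 h PCL7 stood at 0.04 ± 0.11 against 8 h (adjusted p = 0.78). The values of PCL8 and PCL10, cyclins known to direct Pho85 to the synthase, were -0.18 ± 0.14 (adjusted p = 0.30) and 0.09 ± 0.17. SNF1 and SNF4, subunits of the kinase needed for glycogen storage, each fell by 0.45 (SE 0.14 and 0.12), and the phosphatase modulator GLC8 fell by 0.31 ± 0.09.

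Several of these calls were not stable. On the authors' scale as deposited 4 of the control genes were lower, with PHO85, PCL6, PCL7 and SNF1 no longer passing (adjusted p = 0.18, 0.095, 0.087 and 0.11). PHO85 did not pass without any one of 8 arrays, namely 8 h replicate 2 or 3, 30 h replicate 1 or 2, 80 h replicate 1 or 2 and 102 h replicate 2 or 3 (-0.58 to -0.47, adjusted p from 0.051 to 0.096). SNF1 was lost when 30 h replicate 2 was left out (-0.37, adjusted p = 0.085). With the weak-5′ arrays left out, PHO85, PCL6, PCL7 and SNF1 stood at -0.70, -0.51, -0.38 and -0.51, each a larger fall than with all arrays. At adjusted p under 0.01 there were 1 higher and 5 lower.

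SGA1 encodes a glucoamylase known to free glucose from glycogen during sporulation. It gave 64.5 to 170 at 8 h, 179 and 303 at 30 h, 104 to 405 at 60 h, 247 to 278 at 80 h and 268 to 327 at 102 h. From 8 h to 102 h SGA1 rose by 1.43 ± 0.42 (adjusted p = 0.013), and it rose by 1.02 with the weak-5′ arrays left out. With 8 h replicate 1 alone left out the value was 1.02 (adjusted p = 0.060). Late against early the rise of 0.80 ± 0.32 (adjusted p = 0.047) did not pass when any of 10 arrays was left out (all but 8 h replicate 3, 30 h replicate 1 and 60 h replicates 1 and 3, adjusted p up to 0.20). It did not pass with the replicate block either (0.71, adjusted p = 0.061), nor at an unchanged 0.80 with centred arrays, with dim probe sets kept or with no intensity trend (adjusted p = 0.060, 0.057 and 0.056). Leaving out the weak-5′ arrays gave a late rise of 0.60. Of 8 genes of meiosis and sporulation, 3 were higher (SGA1, NDT80 and SPO11) and 2 lower (IME2 and SPS4) late against early, or 4 and 2 without the weak-5′ arrays. Over all probe sets 25.3% were higher and 29.4% lower, so the lower share is near the background. The higher share is above it, and the difference was not tested. SPO11 was above the background threshold on no array of 8 h or 30 h, and SPS4 on none of 102 h, so their calls rest on signals near the floor.

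**Figure D4:**
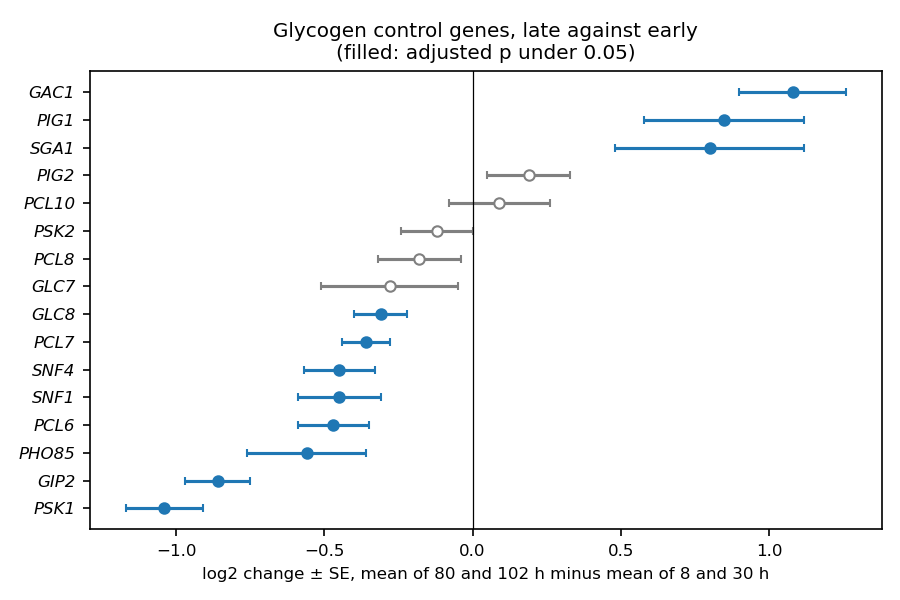
Log2 change ± SE (limma) of 16 glycogen control genes, mean of 80 and 102 h minus mean of 8 and 30 h; filled points passed at adjusted p under 0.05. GAC1 at 1.08, PIG1 at 0.85 and SGA1 at 0.80 are the 3 higher genes, and PSK1 at -1.04 is the lowest of the 8 lower genes.

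The steps on either side were counted in the same comparison, in which 25.3% of all probe sets were higher and 29.4% lower. Of 5 genes that bring glucose into the hexose phosphate pool or interconvert its sugars, 0 rose and 4 fell late against early. Their median was -0.47, and none was higher at an unadjusted p under 0.05. Of 11 genes whose products use UDP-glucose or share that branch, 5 rose and 4 fell (median 0.18), or 5 and 5 without the weak-5′ arrays. The risers were FKS1, GSC2, KRE6 and SKN1 of cell wall glucan synthesis and GAL10, and the fallers were the trehalose genes TPS2, TPS3 and TSL1 and ALG5. FKS1 rose by 1.80 ± 0.23 and GSC2 by 1.52 ± 0.12, and TPS3 fell by 1.55 ± 0.10. These 3 were chosen after their values were seen.

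The courses most like those of GSY1, GSY2 and GPH1 were found among 5297 other genes by the root mean square difference between time means of log2 signal over 5 times, each gene centred on its own mean. Nearest to GSY1 were MKC7 (0.166), YDL159W-A (0.189) and LYS9 (0.198), a lysine synthesis gene with time means of 1630, 1480, 385, 334 and 268. Nearest to GSY2 were ECI1 (0.026), ZRT3 (0.032) and ARR3 (0.045). For GPH1 they were IAH1 (0.071), GVP36 (0.118) and RNQ1 (0.118), though the course of GPH1 itself lies at background. These are descriptions over 5 points of 1 vessel.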

How the data were processed

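Each of 14 RNA samples was read on 1 Affymetrix yeast array with 1 colour. The authors deposited a linear intensity for every probe set, made with GCOS 5.0 per the submitters' processing notes. Its scaling target was not given in the sources used here.

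The 10928 probe sets were quantile normalized. The lower part of each array, split at the median, gave a background threshold of 22.1 (its 95th percentile) and a floor of 5.58 (its median) before log2. A probe set of an S. cerevisiae gene entered the fit if some time had 2 or more arrays above background, 5338 of 5498 in all, the 10 members included. Limma 3.58.1 in R 4.3.3 fitted the 5 times with an intensity trend. Steps were tested on simulated data. Pairs of genes were compared with an exact permutation test of log2 ratios. Symbols were updated by gene number with a table of assembly R64, from which only names were taken. The number of arrays sets the precision. The headers give no scan date or chip lot, so no batch was fitted.

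The members, lists and tests were chosen with earlier results of these data known. Named genes are the 10 members, SGA1 and control genes past the test or of the same subunit group. The 3 courses nearest to each of GSY1, GSY2 and GPH1 were named too. So were the UDP-glucose and sporulation genes that passed late against early, although the plan gave the UDP-glucose genes by counts only. Alternatives covered scale, floor, filter, variance trend, arrays in the fit, replicate block, threshold, probe set averaging and leaving out arrays.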

Additional observations from a re-analysis of the deposited data

How the results depend on the processing

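The 8 genes that changed over time, and the counts from 8 h to 30 h, at 102 h against 8 h and late against early, stayed within 1.5 times under every alternative. The counts of the 3 later intervals did not. On the authors' scale, which shifted the median change over all probe sets by -0.14 from 8 h to 30 h, 0.29 from 60 h to 80 h, -0.27 from 80 h to 102 h and 0.14 late against early, 0 fell from 60 h to 80 h and 2 from 80 h to 102 h. With centred arrays 0 rose from 60 h to 80 h and 0 fell from 80 h to 102 h. With only probe sets above background on all arrays, which left out GDB1 and GPH1, 1 rose from 80 h to 102 h. With only the arrays of the times compared, 0 rose and 1 fell from 30 h to 60 h (GSY1; GDB1 at adjusted p = 0.058 and PGM2 at 0.095), 0 rose from 60 h to 80 h and 4 fell from 80 h to 102 h. At adjusted p under 0.01, 0 rose from 30 h to 60 h, and 0 rose and 0 fell in either later interval. Without the 3 weak-5′ arrays 0 rose from 30 h to 60 h and 2 fell from 80 h to 102 h. Leaving out each array gave 0 to 1 rises and 3 to 4 falls from 30 h to 60 h, 0 to 1 rises and 0 to 3 falls from 60 h to 80 h, 0 to 2 rises and 0 to 1 falls from 80 h to 102 h, 5 to 7 falls both at 102 h against 8 h and late against early, 1.70 to 1.86 for GSY2 over GSY1 and -0.45 to -0.19 for GLG1 over GLG2. Same-numbered arrays correlated between -0.14 and 0.74 in their deviations from time means, above 0.1 in 4 of 26 pairs. Deviations from means of 2 or 3 arrays cannot settle whether the numbers pair samples, and the main fit had no replicate block. With the replicate block, 3 instead of 2 genes fell from 60 h to 80 h, PGM1 being added, no call of a member was lost, and among control genes the late call of SGA1 was lost (0.71, adjusted p = 0.061). Among control genes 3 values turned sign without the 3 arrays: SGA1 from 30 h to 60 h (0.80, from -0.27), PIG1 from 60 h to 80 h (1.12, from -0.01) and GLC7 at 102 h against 8 h (-0.34, from 0.08). The causes were not tested, apart from genes or arrays removed by a setting.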
